A study of Mus musculus with 4 samples.

Results

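The 79 cytoplasmic ribosomal protein genes were chosen by their symbols, from among 12067 genes in the count table of the *Bcor* transplant experiment. A symbol had to start with *Rps* or *Rpl*, go on with a number and at most 1 letter out of a, l, x and y, and end there, or be *Rplp0*, *Rplp1*, *Rplp2* or *Rpsa*. The rule used no measured value. It gave 32 small-subunit genes, counting *Rpsa*, and 47 large-subunit genes, of which 3 encode the P-stalk, and they lie on 19 chromosomes with 4 on the X. All 79 passed the filter on low counts. GENCODE lists 77 of them as protein coding and 2 as processed pseudogenes, *Rps4l* and *Rpl6l*. Genes of ribosomal proteins with other names, such as *Fau*, *Rack1* and *Rps3a1*, fall outside the rule.

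The study asked how truncation of Bcor, a corepressor that joins a variant Polycomb complex, alters myeloid progenitors. Bone marrow of *Bcor*fl/y;*scl-Cre-ERT* males, in which a *Tal1* stem cell enhancer drives a tamoxifen-inducible Cre recombinase, was transplanted into irradiated female *Ptprca* mice, which carry CD45.1 on a C57BL/6 background. Donor-derived (CD45.2+) KL cells, the Kit+ Sca1- Lin- fraction that holds myeloid progenitors, were sorted 20 weeks later and sequenced by Quant-seq. There were 2 libraries of BcorΔE9-10 KL cells and 2 of BcorWT KL cells. Controls were *Bcor*fl/y and so carried the same floxed allele without Cre, and both genotypes had received tamoxifen (5 mg in all over 5 days). By the study's methods donors were 3 to 6 months old, recipients were given 5.5 Gy, and 500000 marrow cells were injected. Removal of exons 9 and 10 shifts the reading frame and gives a protein without its PUFD domain. Nothing in the labels says whether the 2 libraries of a genotype came from separate recipients, so p-values measure the spread between these libraries only.

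Each ribosome has a small subunit, which decodes the mRNA, and a large subunit, which forms the peptide bond. Their proteins are made in equal numbers and assembled on ribosomal RNA in the nucleolus. Most of these mRNAs begin with a C followed by a run of pyrimidines, the 5′ terminal oligopyrimidine (TOP) motif, through which mTOR signalling controls their translation. In blood cells the family is known from Diamond-Blackfan anaemia, in which loss of 1 copy of a ribosomal protein gene impairs red cell formation, and from the 5q- syndrome, in which *RPS14* is lost. Free Rpl5 and Rpl11 bind Mdm2 and so stabilise p53.

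RefSeq start windows (GRCm38.p6, 250 bases before to 50 after each start) were found for 57 of the genes, as 68 windows. Of the 5 genes with the highest and the 5 with the lowest log2 fold changes in the comparison below, 3 and 3 had a window. These starts are shown because a TOP tract would lie at this place. Each run holds 30 bases before the start and 30 from it, 5′ to 3′ on the gene's own strand. Capitals mark a C and T run of 5 or more bases that comes within 5 bases of the start. Such a run need not cover the start and need not be a TOP tract.
Rps6 (chr4:86857338-86857397, minus strand): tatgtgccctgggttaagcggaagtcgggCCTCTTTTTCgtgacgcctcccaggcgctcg
Rpl4 (chr9:64173357-64173416, plus strand): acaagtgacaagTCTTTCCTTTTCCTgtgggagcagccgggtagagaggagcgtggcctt
Rps23 (chr13:90923092-90923151, plus strand): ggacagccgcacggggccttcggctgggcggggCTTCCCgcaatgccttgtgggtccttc
Rpl28 (chr7:4792935-4792994, plus strand): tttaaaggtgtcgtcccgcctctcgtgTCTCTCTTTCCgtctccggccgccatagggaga
Rps2 (chr17:24720033-24720092, plus strand): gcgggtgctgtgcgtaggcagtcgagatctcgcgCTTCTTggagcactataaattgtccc
Rpl14 (chr9:120571487-120571546, plus strand): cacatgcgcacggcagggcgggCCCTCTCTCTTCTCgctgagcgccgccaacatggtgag

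All 6 had such a run, whichever way the gene's fold change pointed, while *Rpsa*, the next lowest in fold change, had none. Over all windows of the family 51.5% had one, against 31.4% of 32851 windows of all genes, and runs of 7 or more were in 39.7% against 13.5%. On either strand, the ETS motif CCGGAAG was in 36.8% of the family's windows and in 8.9% of all windows; its reverse complement starts with a pyrimidine run, so the features overlap. The YY1 motif AAGATGGC was in 10.3% against 2.7%, CACGTG in 11.8% against 7.2%, CCAAT in 32.4% against 37.4% and TATAAA in 8.8% against 13.6%. These are matches of letters and not sites of binding.

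No ribosomal protein gene differed between BcorΔE9-10 and BcorWT KL cells at an adjusted p under 0.05 in edgeR's quasi-likelihood test, where 0.0166% of all 12067 genes did. At an unadjusted p under 0.05, 1 gene was higher, *Rps6*, and none was lower, against 1.34% of all genes higher and 3.07% lower. limma-voom and DESeq2 gave 0 of the 79 genes at an adjusted p under 0.05 as well, where 4 and 43 of all genes passed. Each gave *Rps6* and *Rps4l* at an unadjusted p under 0.05 (2.53% of the 79, against 4.27% and 4.19% of all genes). The median log2 fold change of the 79 genes was 0.09 (interquartile range -0.11 to 0.26), where the median of all genes was -0.03. It lay between -0.13 and 0.25 over the 4 single pairs of a BcorΔE9-10 and a BcorWT library (SD 0.20), a range that takes in 0. Of the 79 genes, 51 were above 0 (64.6%, against 47.7% of all genes) and 61 lay within 1 standard error of 0. The fold was under 1.5 either way for 70 genes, and only *Rps6* and *Rps4l* were past 1 on the log2 scale. Standard errors ran from 0.31 to 0.58, and differences within them were not detectable with 2 libraries a genotype.

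**Figure D1:**
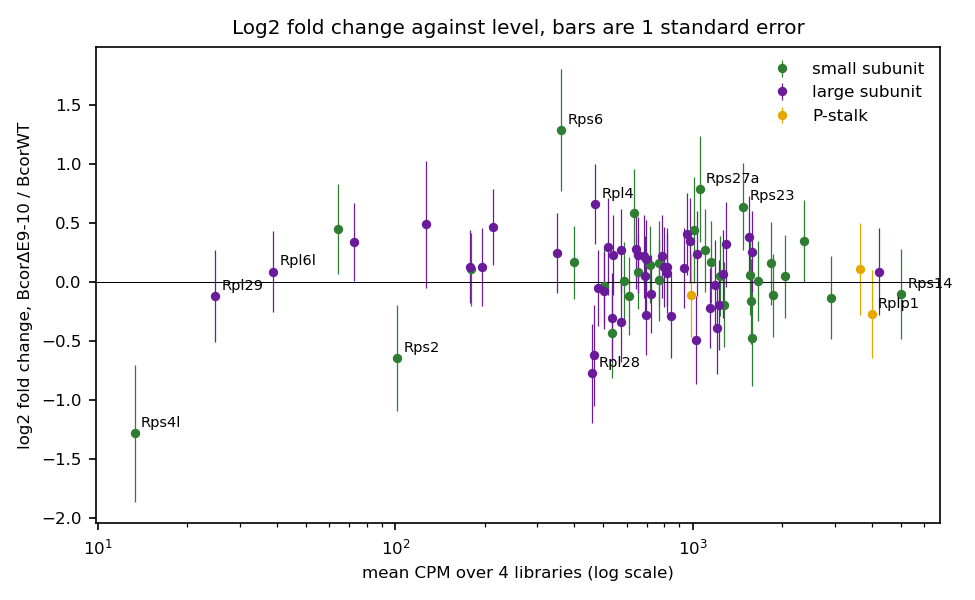
Log2 fold change of BcorΔE9-10 over BcorWT KL cells (vertical axis) against mean CPM over the 4 libraries (horizontal, log scale) for the 79 ribosomal protein genes, with bars of 1 standard error and colours for the small subunit, the large subunit and the P-stalk. Most points lie between -0.5 and 0.5, and Rps6 (1.29) and Rps4l (-1.28) lie farthest from 0.

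As a whole the family took 9.79% of all counts in BcorΔE9-10 replicate 1 (95% Wilson interval 9.77 to 9.82), 7.18% in replicate 2 (7.16 to 7.20), 6.89% in BcorWT replicate 1 (6.87 to 6.92) and 8.76% in replicate 2 (8.73 to 8.78). The genotypes overlapped, with means of 8.49% ± 1.85 and 7.83% ± 1.32 (SD, n = 2 each), and their difference of 0.661 percentage points was smaller than the spread between replicates. These shares rest on 5058140, 6253100.5, 3825289.5 and 4992205 counts, and the intervals cover counting error only. A single row, *Gm42418*, a transcript that overlaps ribosomal RNA sequence, took 16.3%, 14.3%, 27.9% and 1.43% of the counts of the same 4 libraries. Without it the family's share was 11.7%, 8.38%, 9.56% and 8.89%, which put the BcorWT libraries next to each other and both between the BcorΔE9-10 libraries. Fewer cells of a type and less RNA per cell cannot be told apart in such shares.

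**Figure D2:**
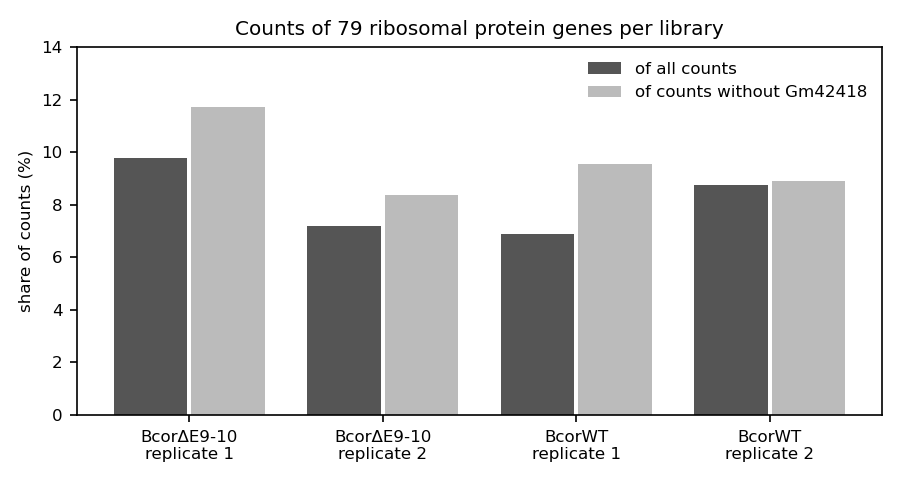
Share of counts (%) held by the 79 ribosomal protein genes in each of the 4 libraries, of all counts (dark) and of counts without Gm42418 (light). BcorΔE9-10 replicate 1 is highest on both scales (9.79% and 11.7%), and the lowest library changes from BcorWT replicate 1 to BcorΔE9-10 replicate 2.

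In CPM scaled by TMM factors the family summed to 91560 and 73180 in the BcorΔE9-10 libraries and to 77010 and 82280 in the BcorWT libraries. The BcorΔE9-10 replicates differed in a common direction, since replicate 1 was above replicate 2 for 76 of the 79 genes, by a median of 0.31 on the log2 scale. The BcorWT replicates differed gene by gene, with replicate 1 above replicate 2 for 37 genes. The SD over genes of the log2 difference between replicates was 0.23 for BcorΔE9-10 and 0.56 for BcorWT, while BcorΔE9-10 replicate 1 and BcorWT replicate 1, of different genotypes, had 0.19. BcorWT replicate 2 was the highest or the lowest of the 4 libraries for 58 of the 79 genes.

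**Figure D3:**
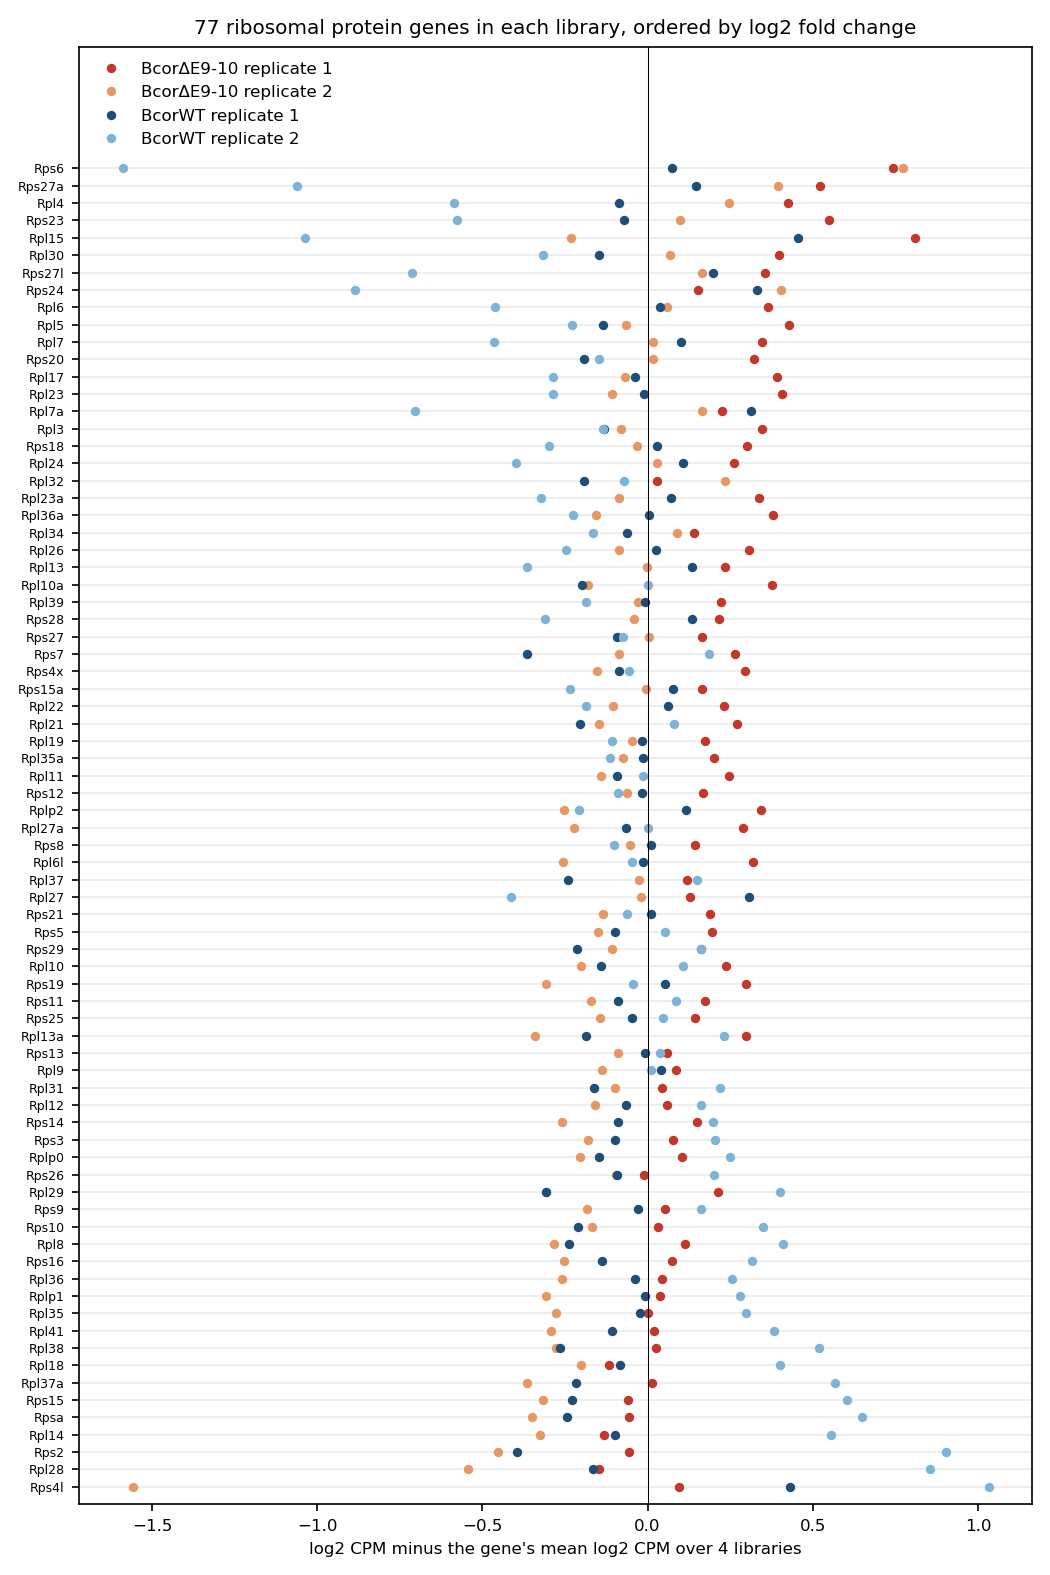
Log2 CPM of 77 of the ribosomal protein genes in each library minus the gene's mean over the 4 libraries (horizontal axis), with genes in order of log2 fold change (vertical). BcorWT replicate 2 (light blue) lies at the left edge for genes at the top and at the right edge for genes at the bottom, and BcorΔE9-10 replicate 1 (red) lies right of replicate 2 (orange) for nearly all of them.

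Among the genes with the highest fold changes, *Rps6* (chr4:86854660-86857412), the phosphorylated target of the S6 kinases in the small subunit, had 506.8 and 518.0 CPM in BcorΔE9-10 and 318.9 and 100.7 CPM in BcorWT. Its groups did not overlap, and the BcorWT libraries lay farther from each other than BcorWT replicate 1 lay from either BcorΔE9-10 library on the log2 scale. The log2 fold change was 1.29 ± 0.52 (SE), with an edgeR p of 0.0391 and an adjusted p of 0.945. BcorWT replicate 2 minus replicate 1 was -1.66 on the log2 scale, so this fold change is smaller without replicate 2 and larger without replicate 1. *Rps27a*, which encodes ubiquitin fused to a small-subunit protein, had 1395 and 1278 CPM in BcorΔE9-10 and 1075 and 466 CPM in BcorWT (log2 fold change 0.79 ± 0.45). Here too replicate 2 of BcorWT was far below the other 3 libraries. *Rpl4*, which lines the exit tunnel of the large subunit, had 610.1 and 539 CPM in BcorΔE9-10 and 428 and 302 CPM in BcorWT (0.66 ± 0.34). *Rps23*, a protein of the decoding centre, had 2076 and 1519 CPM against 1352 and 951 CPM (0.64 ± 0.37). For *Rpl4* and *Rps23* both BcorWT libraries lay below both BcorΔE9-10 libraries, with edgeR p of 0.0931 and 0.123 and the same adjusted p of 0.945.

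At the other end *Rps4l*, a retrocopy of *Rps4x* on chromosome 6, had 11.8 and 3.75 CPM in BcorΔE9-10, from 64 and 23 counts, and 14.9 and 22.6 CPM in BcorWT, from 51 and 120 counts. Its log2 fold change was -1.28 ± 0.58 with an edgeR p of 0.0591, and the BcorΔE9-10 libraries differed from each other by 1.56 on the log2 scale. *Rpl28*, a large-subunit protein, had 386 and 293 CPM in BcorΔE9-10 and 381 and 774 CPM in BcorWT (-0.77 ± 0.42), so that BcorWT replicate 1 lay between the BcorΔE9-10 libraries. The same order held for *Rps2*, a protein at the mRNA entry channel, with 90.2, 68.6, 71.3 and 175.6 CPM (-0.64 ± 0.45). *Rpl14* had 908 and 793 CPM against 927 and 1462 CPM (-0.49 ± 0.37), and *Rpsa*, the laminin receptor homologue that sits on the small subunit, had 1462 and 1193 CPM against 1283 and 2386 CPM (-0.47 ± 0.41). Without BcorWT replicate 2 the log2 fold changes of *Rps2* and *Rpsa* were 0.16 and 0.05, on the other side of 0.

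Groups that did not overlap were counted with no model. Both BcorΔE9-10 libraries were above both BcorWT libraries for 13 of the 79 genes (16.5%, against 16.8% of all genes), and below them for 3 (3.80%, against 17.1%). Among the 13 were *Rps6*, *Rps27a*, *Rpl4*, *Rps23*, *Rpl30*, *Rpl6*, *Rpl5*, *Rps20*, *Rpl3*, *Rpl32*, *Rpl34* and *Rps27*, and the 3 were *Rps4l*, *Rpl14* and *Rpl18*. The share above was thus close to that of all genes, and the share below was smaller. Neither difference was tested.

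BcorWT replicate 2 was set against replicate 1 to see which genes differed between them. The log2 difference was past 1 for 8 genes: among them it was negative for *Rps6* (-1.66), *Rpl15* (-1.49), *Rps24* (-1.21), *Rps27a* (-1.21) and *Rpl7a* (-1.01), and positive for *Rps2* (1.30) and *Rpl28* (1.02). Between the BcorΔE9-10 replicates it was past 1 for *Rps4l* (-1.56) and *Rpl15* (-1.04) alone, and *Rpl13a* came next with -0.64. Across the 79 genes, the BcorWT difference had a Pearson correlation of 0.39 with the GC content of the last 300 transcript bases, where Quant-seq reads fall, and across 10239 coding genes it was 0.43. For the BcorΔE9-10 replicates these values were -0.011 and -0.12. The genes share libraries and are not independent replicates, and the part of base composition in the comparison of genotypes was not tested. With BcorWT replicate 1 left out, so that BcorWT replicate 2 stood alone and was assumed to vary like the BcorΔE9-10 libraries, edgeR gave 16 of the 79 genes at an unadjusted p under 0.05 and 2, *Rps27a* and *Rps6*, at an adjusted p under 0.05, but 25% of all genes passed the unadjusted threshold there and 596 the adjusted one. The median log2 fold change of the 79 genes was 0.09 with either BcorWT library left out.

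**Figure D4:**
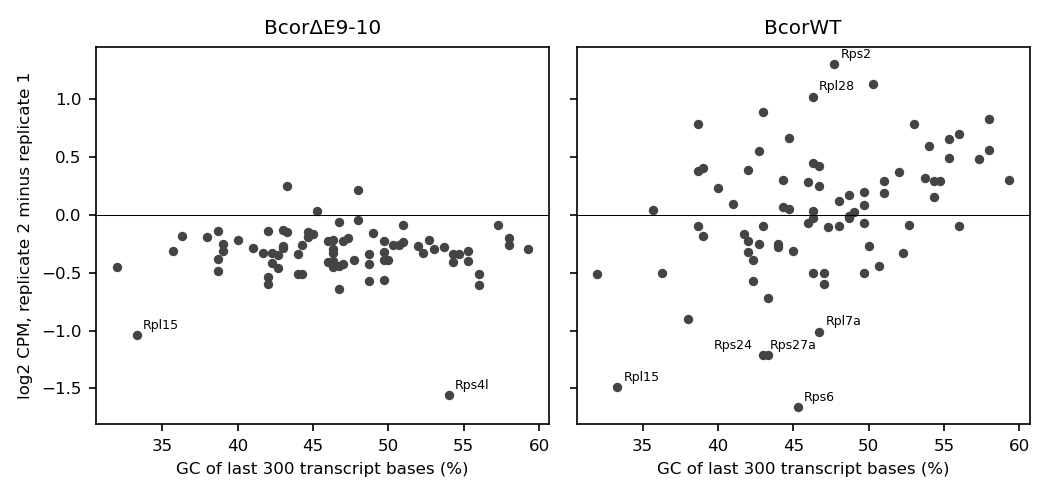
Log2 CPM of replicate 2 minus replicate 1 (vertical axis) against the GC content of the last 300 transcript bases (horizontal, %) for the 79 ribosomal protein genes, in BcorΔE9-10 (left) and BcorWT (right) KL cells. All but 3 BcorΔE9-10 points lie under 0, with Rps4l (-1.56) and Rpl15 (-1.04) far below the others, and the BcorWT points spread from -1.66 to 1.30 and rise with GC content (Pearson correlation 0.39).

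Quant-seq counts each transcript once near its 3′ end, so CPM were compared between genes without division by length. The highest mean level was that of *Rps14*, with 5525, 4160.3, 4677 and 5709 CPM in BcorΔE9-10 replicates 1 and 2 and BcorWT replicates 1 and 2. *Rpl27a* followed with 5137, 3600.2, 4016 and 4205 CPM, then *Rplp1* with 4054, 3196, 3929.9 and 4795 CPM, *Rplp2* with 4566, 3019.6, 3896 and 3114 CPM, and *Rps9* with 3018, 2564, 2853 and 3259 CPM. By the gene rows alone *Rps14* was the highest in all 4 libraries, and the order of the other 4 genes changed between libraries. With matching pseudogenes added *Rpl27a*, at 6765, 6084.5, 6773 and 4518 CPM, was above *Rps14*, at 5588, 4208, 4718 and 5741 CPM, in all but BcorWT replicate 2. A single pseudogene, *Gm19353*, gave 1313, 2128, 1956 and 19 CPM of the *Rpl27a* sums. The 5 lowest were *Rpl17* (58.7 to 93.9 CPM), *Rps27l* (37.6 to 78.9 CPM), *Rpl6l* (32.1 to 47.9 CPM), *Rpl29* (19.6 to 32 CPM) and *Rps4l* (3.75 to 22.6 CPM). For *Rpl17*, matching pseudogenes held 784 counts per 100 counts of the gene, where reads counted in more than 1 row would be held more than once.

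Grouped by their place in the ribosome, small-subunit genes had a median log2 fold change of 0.06 and large-subunit genes of 0.12. These medians were -0.10 and -0.09 without BcorΔE9-10 replicate 1, and 0.22 and 0.27 without replicate 2, and the first was 0.02 without BcorWT replicate 1. The P-stalk genes, whose proteins recruit the GTPase elongation factors, had log2 fold changes of -0.11 ± 0.35 (*Rplp0*), -0.27 ± 0.37 (*Rplp1*) and 0.11 ± 0.39 (*Rplp2*), with overlapping groups in each. Of the 5S particle, which can bind Mdm2, *Rpl5* had 2049 and 1454 CPM against 1387 and 1298 CPM (0.38 ± 0.35) and *Rpl11* had 1105 and 844 CPM against 874 and 923 CPM (0.12 ± 0.34), so that *Rpl5* did not overlap between genotypes and *Rpl11* did.

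The 23 genes listed for Diamond-Blackfan anaemia had a median of 0.13 (-0.02 without BcorΔE9-10 replicate 1, 0.27 without replicate 2), with 0 at an unadjusted p under 0.05. *Rps19*, the gene most often affected in that disease, had 939 and 617 CPM against 792 and 739 CPM (0.02 ± 0.35), with both BcorWT libraries between the BcorΔE9-10 libraries. *Rps14* had a log2 fold change of -0.10 ± 0.38, and *Rpl22*, which is deleted in some T-cell leukaemias, one of 0.13 ± 0.34. Of the variant copies, *Rps27l*, a p53-responsive relative of *Rps27*, had 78.9 and 69.1 CPM against 70.7 and 37.6 CPM (0.45 ± 0.38), and *Rps27* had 444 and 397 CPM against 371.5 and 376.5 CPM (0.17 ± 0.31). The parent genes of the other copies lay between 0.05 and 0.28, as *Rpl10* had 0.05, *Rps4x* 0.16, *Rpl39* 0.20 and *Rpl3* 0.28, while *Rpl3l*, *Rpl10l* and *Rpl39l* were not analysed here.

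Gene groups that work with the ribosome were read in the same fit. Of 21 other TOP mRNAs 0 passed an unadjusted p of 0.05 in either direction, with a median log2 fold change of 0.21. This median was 0.05 without BcorΔE9-10 replicate 1, 0.38 without BcorWT replicate 1 and 0.04 without BcorWT replicate 2. Its extremes were *Eif3e* (0.53 ± 0.34) and *Naca* (0.49 ± 0.32), an initiation factor subunit and a chaperone at the exit tunnel, and *Eef2* (-0.60 ± 0.45), the translocation factor. *Eef2* had 1953.7 and 1264.3 CPM in BcorΔE9-10 and 1588.1 and 3273.4 CPM in BcorWT, so that BcorWT replicate 2 again stood alone. The 8 genes listed as ribosomal proteins or relatives with other names, which include the binding protein gene *Rps19bp1*, had a median of 0.12. The 65 genes with symbols of translation factors, which include kinase and repressor genes such as *Eif2ak2* and *Eif4ebp1*, had a median of 0.11. Of either list 0 genes were at an unadjusted p under 0.05. The median of the 8 genes was 0.04 without BcorΔE9-10 replicate 1. That of the 65 genes was 0.04 without BcorΔE9-10 replicate 1, 0.19 without BcorWT replicate 1 and 0.03 without BcorWT replicate 2.

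The 72 measured genes of ribosome biogenesis had a median of 0.04 (-0.15 without BcorΔE9-10 replicate 1, 0.12 without replicate 2, 0.15 without BcorWT replicate 1 and -0.06 without BcorWT replicate 2) and the 77 mitochondrial ribosomal protein genes of -0.03 (0 to 0.04 as each library was left out), also with 0 at an unadjusted p under 0.05. Of the mitochondrial genes 18 were above and 13 below without overlap (23.4% and 16.9%, against 16.8% and 17.1% of all genes). For RNA polymerase I and its factors, which transcribe ribosomal RNA, the median of 15 genes was 0.11 (-0.19 without BcorΔE9-10 replicate 1, 0.37 without replicate 2, 0.01 without BcorWT replicate 1, -0.04 without BcorWT replicate 2), and *Ubtf* (-0.58 ± 0.33), *Tcof1* (-0.60 ± 0.30) and *Polr1b* (-0.58 ± 0.38) were lower in both BcorΔE9-10 libraries while *Twistnb* (0.73 ± 0.35) was higher. These 4 had edgeR p between 0.0739 and 0.168. Without overlap 20% of the 15 genes were lower (against 17.1% of all genes) and 6.67% higher (against 16.8%).

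Processed pseudogenes of ribosomal protein genes are copies of the mRNA that lie elsewhere in the genome, and a read of a short 3′ tag can match both. How reads with several matches were counted, and whether strand was used, is not given in the sources used here. The table held 838 pseudogenes, and for 371 of them the coding transcript most like theirs was that of 1 of 71 ribosomal protein genes, with a median identity of 97.9%. They took 2.98%, 2.36%, 2.23% and 2.25% of counts, or 30.5, 32.9, 32.4 and 25.7 counts per 100 counts of the family, in BcorΔE9-10 replicates 1 and 2 and BcorWT replicates 1 and 2. For 10 genes the pseudogenes held more counts than the gene itself, with *Rps12*, *Rpl17* and *Rpl23a* highest. *Rps12-ps9* and *Rps12l1* had near-equal counts, with 5659 and 5633 in BcorΔE9-10 replicate 1, as had *Rpl17-ps8* and *Rpl17-ps9* with 556 and 555. Whether such rows hold the same reads was not tested, and reads counted in both would enter these sums more than once. In edgeR 25 of the 371 were higher and 30 lower at an unadjusted p under 0.05 (14.8%, against 4.42% of all genes), and these rows may share reads with each other. Of the 79 ribosomal protein genes 1.27% passed it.

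At an adjusted p under 0.05 there was 1, *Gm11425* (chr11:83027500-83027997), 99.2% identical to the *Rpl12* transcript, with 1309 and 1166 counts in BcorΔE9-10 and 19 and 28 in BcorWT (log2 fold change 5.32 ± 0.39, edgeR adjusted p = 0.00577). *Rpl12* itself, a protein at the base of the stalk, had 753 and 647 CPM against 691 and 809 CPM (-0.10 ± 0.33). The 2 differences thus did not go together.

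*Rps6* had 10 such pseudogenes in the table, which together held 252 counts per 100 counts of the gene. *Rps6-ps1*, 98.1% identical, had 438 and 328 CPM in BcorΔE9-10 and 142 and 197 CPM in BcorWT, the direction of *Rps6*. *Rps6-ps4*, 100% identical, went the other way with 77.6 and 17.1 CPM against 321 and 103 CPM, and *Rps6-ps3*, *Gm8172*, *Gm16409*, *Gm11263* and *Gm11604* were also lower in both BcorΔE9-10 libraries. In both BcorWT libraries *Rps6-ps4* was as high as *Rps6* itself (321 and 319 CPM in replicate 1, 103 and 101 CPM in replicate 2), which it was not in BcorΔE9-10. With all 10 added to *Rps6* the sum was 1517 and 1092 CPM in BcorΔE9-10 and 2041 and 875 CPM in BcorWT, the genotypes overlapped, and the log2 fold change was -0.16. The only call at an unadjusted p under 0.05 was lost in this sum. *Rps6-ps3*, *Rps6-ps4*, *Gm8172* and *Gm16409* had near-equal counts, with 406, 420, 410 and 396 in BcorΔE9-10 replicate 1. In BcorWT replicate 1 they had 996, 1100, 950 and 821. Whether these rows hold the same reads was not tested, and reads counted in more than 1 row would enter the sum more than once. The same limit holds for the other genes pooled below. When each gene was pooled with its copies, 0 of the 79 genes passed an edgeR p of 0.05 in either direction, against 4.38% of all genes. Without overlap 12 lay above (15.2%, against 16.8% of all genes under the same pooling) and 7 below (8.86%, against 17.1%).

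**Figure D5:**
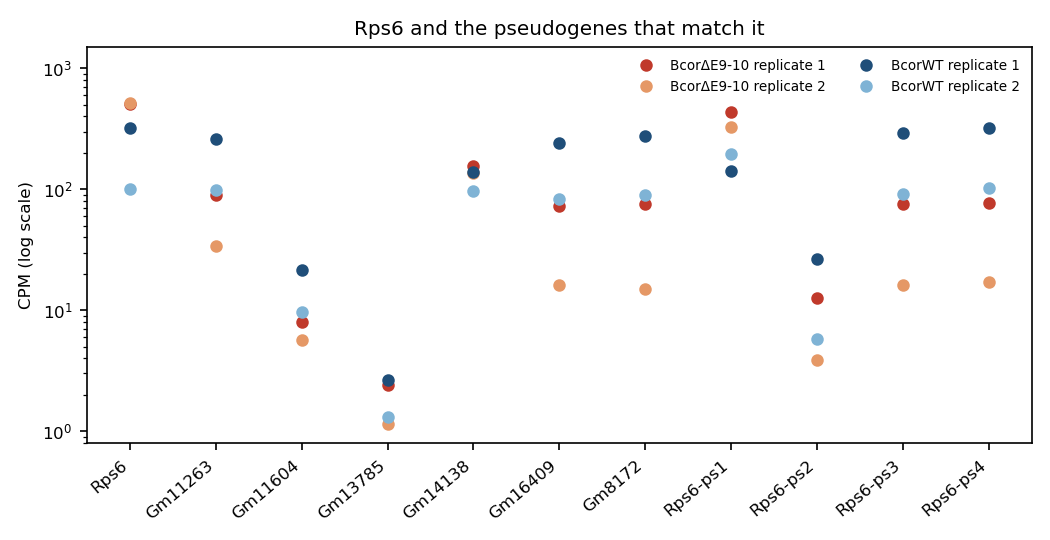
CPM (log scale) of Rps6 and of the 10 pseudogenes whose closest coding transcript is Rps6, with 1 point for each of the 4 libraries. Rps6 and Rps6-ps1 are higher in both BcorΔE9-10 libraries (red and orange), and Rps6-ps3, Rps6-ps4, Gm8172, Gm16409, Gm11263 and Gm11604 are lower.

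Cells other than KL progenitors were looked for by their markers, although the sort took lineage-negative cells, after a depletion of lineage-positive cells, and its antibodies included CD5, B220, CD11b, Gr-1 and Ter-119. *Kit* and *Mpo* were present in all 4 libraries and the 12 KL progenitor genes summed to 11350.2, 8610.2, 11488 and 11573 CPM. The 11 late neutrophil genes summed to 63548, 155619, 94780 and 144159 CPM and were lowest in BcorΔE9-10 replicate 1, the library with the highest ribosomal protein level. The 10 measured erythroid genes summed to 211 and 191 CPM in BcorΔE9-10 and to 80.3 and 90.0 CPM in BcorWT, with no overlap between genotypes for any of the 10 (against 16.8% of all genes higher without overlap) and an unadjusted edgeR p under 0.05 for 6 (against 1.34% of all genes). Of eosinophil, basophil and mast cell genes 5 of 9 passed as lower (against 3.07% of all genes) and 8 of 9 were lower without overlap (against 17.1%), with sums of 278 and 239 CPM against 578 and 722 CPM. Of monocyte and dendritic cell genes 6 of 9 were lower and 1 higher without overlap, with 0 at an unadjusted edgeR p under 0.05 and sums of 755 and 774 CPM against 921 and 1783 CPM. The 4 measured T and NK cell genes, *Lck*, *Klrb1c*, *Ncr1* and *Nkg7*, had log2 fold changes from -1.75 to -0.46, and the 4 measured B-cell genes, *Cd79b*, *Ebf1*, *Igll1* and *Vpreb1*, from -0.24 to 0.94, with 0 of the 8 at an unadjusted edgeR p under 0.05. The T-cell genes *Cd3d*, *Cd3e* and *Cd3g* and the B-cell genes *Cd79a* and *Ms4a1* were not analysed here. The part of these cells in the ribosomal protein levels was not tested. *Bcor* itself had 104 and 113 counts in BcorΔE9-10 and 58 and 79 in BcorWT (0.25 ± 0.36), and since its 3′ tags lie outside the deleted exons this level does not check the labels.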

How the data were processed

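The authors sequenced 4 Quant-seq 3′ libraries, removed reads of low quality, trimmed with cutadapt, mapped to mm10 (GRCm38) with HISAT2 and counted on genes with subread. The deposited values are raw counts. In BcorΔE9-10 replicate 2 and BcorWT replicate 1 the deposited values were treated as estimated counts, because *Gm4430* is not whole there, and were rounded.

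The 12067 genes were tested with edgeR 4.0.16 in R 4.3.3 (filterByExpr, which removed 0 genes, TMM scaling, quasi-likelihood F test, prior count 0.125, Benjamini-Hochberg adjustment). A standard error is the size of the log2 fold change divided by the square root of F. Log2 CPM used a prior count of 2. limma 3.58.1 (voom) and DESeq2 1.42.0 were alternatives, beside scaling, filters, the replicate number as a block, pseudogene counts and each library left out. Totals ran from 3825289.5 to 6253100.5 counts, and 3 counts were 0.489 to 0.876 CPM. Positions and biotypes came from GENCODE M21 and start windows from RefSeq. Pseudogenes were aligned to coding transcripts (blastn 2.17.0), and plots used Python 3.11.15, pandas 2.3.3 and matplotlib 3.10.9. Fits were tested on simulated data.

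Genes were named by a rule: the 5 highest and 5 lowest in fold change and in level, the 3 least repeatable in each genotype, the P-stalk, the 5S particle, variant copies and their parents, *Rps19*, *Rps14*, *Rpl22*, *Rps27a*, *Rpsa*, up to 4 extremes of each related list, and pseudogenes past an adjusted p of 0.05 with their parents. The members and lists were chosen with earlier results of these data known. Pooling pseudogenes by sequence match, and leaving out the 2 annotated pseudogenes, were added after the data were seen. Some items that the rule names are not reported here.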

Additional observations from a re-analysis of the deposited data

How the results depend on the processing

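With each library left out in turn, the count of ribosomal protein genes at an adjusted p under 0.05 ran from 0 to 2, that higher at an unadjusted p under 0.05 from 0 to 9 and that lower from 0 to 7, with the highest values without BcorWT replicate 1. Each of these fits left 1 library in a genotype, and the share of all genes under the unadjusted threshold ran from 2.01% to 25%. That share too was highest without BcorWT replicate 1. In each of these fits a smaller share of the 79 genes than of all genes passed, so the counts do not set the family apart. At an unadjusted p under 0.05, the replicate number as a block gave 2 genes higher and 1 lower (3.80% of the 79, against 3.85% of all genes). limma-voom and DESeq2 gave 1 lower each beside *Rps6* (2.53% of the 79, against 4.27% and 4.19% of all genes). Adding pseudogene counts by name or by match gave 0 in either direction (against 4.34% and 4.38% of all genes). Reads counted in more than 1 row would enter these poolings more than once. Without overlap, these poolings put 12 genes above in both (15.2%, against 16.7% and 16.8% of all genes) and 6 and 7 below (7.59% and 8.86%, against 17.1% in both). The cause was not tested. Libraries with the same number deviated from their group means with a correlation of -0.094, so the numbers were not taken to pair the samples, and the block left the median log2 fold change at 0.09. The median ran from -0.09 to 0.25 as libraries were left out (-0.09 without BcorΔE9-10 replicate 1, 0.25 without replicate 2). Among the genes named by the rule, log2 fold changes crossed 0 with pseudogenes added by name or match for *Rpl10* (-0.24, -0.20) and *Rpl15* (-0.53, -0.44), by match for *Rpl12* (0.24) and *Rps6* (-0.16), and under the block and limma-voom for *Rps19* (-0.01 in both). Over the libraries left out, those that crossed 0 ranged from -0.19 to 0.25 (*Rpl10*), -0.09 to 0.30 (*Rpl11*), -0.21 to 0.02 (*Rpl12*), -0.38 to 0.26 (*Rpl13a*), -0.12 to 1.41 (*Rpl15*), -0.05 to 0.29 (*Rpl22*), -0.19 to 0.32 (*Rpl27a*), -0.43 to 0.28 (*Rpl29*), -0.22 to 0.36 (*Rpl6l*), -0.29 to 0.11 (*Rplp0*), -0.22 to 0.39 (*Rplp2*), -0.32 to 0.09 (*Rps14*), -0.31 to 0.30 (*Rps19*), -1.15 to 0.16 (*Rps2*), -0.08 to 0.37 (*Rps4x*) and -0.85 to 0.05 (*Rpsa*). Depth limits *Rps4l* and *Rpl29* most, and 2 libraries a genotype limit every test.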
